A study of Mus musculus with 92 samples.

Results

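The interferon regulatory factors (IRFs) described here are the genes Irf1, Irf2, Irf3, Irf4, Irf5, Irf7 and Irf8, chosen by gene symbol. They are 7 of the 29956 named genes in the deposited expression table, and all 7 were found in it. Irf9, a further family member, was followed beside them.

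IRFs are transcription factors that share a DNA-binding domain and recognise interferon-stimulated response elements in the promoters of antiviral and immune genes. IRF3 and IRF7 are switched on by phosphorylation downstream of nucleic acid sensors and drive transcription of type I interferon genes, while IRF1 and IRF7 are themselves transcribed in response to interferon. IRF8 is a lineage factor of monocytes, macrophages and microglia, IRF4 acts in lymphocytes and in alternatively activated macrophages, IRF5 serves Toll-like receptor signalling, and IRF2 competes with IRF1 for the same elements.

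The libraries are bulk RNA from mouse cells, and levels are given as the log2 of counts scaled to a common library total (log2 CPM). Wild-type FVB bone marrow gave progenitors, monocytes and, after 7 days in vitro with M-CSF, bone marrow derived (BMD) macrophages. ER-Hoxb8 cells are progenitors that a conditional Hoxb8 keeps immature while estradiol and GM-CSF are present. From a Cas9 heterozygous FVB mouse they were sampled as progenitors, after 4 days of differentiation and after 7 days as macrophages. Microglia-like cells (MLCs) are marrow or ER-Hoxb8 cells injected into the brain of Csf1r-/- mice, which lack microglia of their own, and sorted out again later. The labels give the injected ER-Hoxb8 cells the genotype WT and name no Cas9 mouse for them. Unmanipulated FVB wild-type microglia, also sorted, were the reference for the brain. In a further experiment Cas9 heterozygous ER-Hoxb8 cells carried a non-targeting control guide (NTC) or 1 of 2 guides against Adar, the gene of the RNA editing enzyme ADAR1, as progenitors or as macrophages after 7 days. NTC and guide 1 cells, called Adar1 KO there, were also differentiated for 7 days with baricitinib, an inhibitor of JAK1 and JAK2, at labelled doses of 0, 0.0006, 0.016, 0.4 and 10 uM. The treatment text of the labels gives 0.00064 and 0.16 uM where the sample titles give 0.0006 and 0.016 uM, a ratio of 1.07 and of 10. The written methods of the study give the doses of the treatment text. The doses here are those of the titles and serve as names of the groups. Ages of the mice and the time spent in the brain are not in the labels.

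Each library was compared only with libraries of the same normalization set, recognised by a shared lowest value in the table. A gene was called higher or lower when limma's p, adjusted over all genes tested in its set, was below 0.05. Irf4 was below the filter on low values in the experiments with guides and with baricitinib, where its highest library stood at -1.73 log2 CPM, so 6 IRFs were tested there and 7 elsewhere.

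Some libraries stood apart from others with the same label. ER-Hoxb8 progenitors replicate 2 had a summed CPM of 5 macrophage markers of 4035, against 1867 in replicate 1 and 431 in replicate 3, with Cd68 as its most abundant marker. Its Kit level, a progenitor receptor, was -0.76 log2 CPM, against 5.03 and 1.67 in the other libraries of the group. Over 12056 genes it correlated at 0.942 to 0.984 with the day 4 libraries, highest with replicate 2, and at 0.89 and 0.845 with progenitors replicates 1 and 3. In day 4 replicate 2 the macrophage markers summed to 4173 CPM and Kit stood at -1.15. Kit stood at 4.30 and -1.80 in day 4 replicates 1 and 3. A further marker, Mpo, stood at 4.40, 2.77 and 11.20 in ER-Hoxb8 progenitors and at 3.39, 4.13 and 4.34 at day 4. For Mpo, progenitors replicate 1 was thus near the day 4 level too. ER-Hoxb8 progenitors replicate 2 thus resembled day 4 cells. Ccr2 stood at 1.49, 9.33 and 1.73 in ER-Hoxb8 progenitors, 2.34, 9.34 and 8.06 at day 4 and 3.13, 6.71 and 4.45 in ER-Hoxb8 macrophages. It was thus highest in replicate 2 at each stage. The paper describes 3 independent ER-Hoxb8 lines. Whether the label of progenitors replicate 2 is wrong or its line differs was not tested. ER-Hoxb8 MLCs replicate 6 had 6 microglia markers summing to 835 CPM, against 6114 to 10292 CPM in the other libraries of the group, and 3 monocyte markers summing to 6743 CPM, against 102 to 420 CPM. The 3 T and NK cell markers of that library summed to 401 CPM, with Nkg7 at 334 CPM. Microglia replicates 8 and 9 carry the library name YSWT, while replicates 1 to 7 carry WT. In replicate 8 the 3 neuron markers summed to 39.1 CPM, against 0.618 to 3.05 CPM in the other microglia, and its Irf7 level of -2.26 was the lowest of the group. The lowest correlation between libraries of the microglia group was 0.667. Microglia replicates 4, 5 and 8 were below the others for Irf1 (3.89, 4.14 and 4.05 against 4.99 to 5.99) and Irf8 (7.78, 7.78 and 7.81 against 8.68 to 9.33). The same held for Irf5 (5.85, 5.48 and 6.50 against 7.10 to 8.67) and the microglia marker Tmem119 (9.52, 9.51 and 9.14 against 12.04 to 13.35). For Irf2 they overlapped the others. What sets these libraries apart was not tested. Adar1 KO macrophages at 0.4 uM baricitinib were not alike: Irf7 stood at 0.70, 10.52 and 3.31 log2 CPM in the 3 libraries. NTC macrophages replicate 2 had a lowest value of its own and was left out of the tests unless stated. For part of the IRF results, values with and without these libraries are given below, and results for lists of other genes are given with all libraries of the fit.

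The labelled cell types were checked against their markers. Macrophage markers summed to 125 to 175 CPM in marrow progenitors, 1120 to 1366 CPM in monocytes, 6551 to 8590 CPM in BMD macrophages and 6226 to 9193 CPM in ER-Hoxb8 macrophages. Microglia markers summed to 44570 to 74049 CPM in microglia and 5178 to 18496 CPM in BMD MLCs. Sall1, a transcription factor that defines microglia, stood at 8.31 to 8.91 log2 CPM in microglia but at -1.26 to 0.79 in BMD MLCs and -0.38 to 2.66 in ER-Hoxb8 MLCs, so MLCs lacked that marker at the level of microglia.

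The RNA level of Adar was above that of NTC in guide 1 macrophages without drug and below it at 10 uM baricitinib. In macrophages Adar stood at 6.96, 7.15 and 7.01 log2 CPM with guide 1, at 5.73 and 5.67 in the NTC libraries 1 and 3, and at 7.02, 7.00, 7.02, 7.03 and 6.99 with guide 2. Every guide 1 library was above every NTC library. The difference of guide 1 from NTC was 1.34 (adjusted p 0.000976), and an edited gene can still be transcribed, so the RNA level does not check the edit. In progenitors Adar stood at 4.36, 4.23 and 4.24 with guide 1, 4.20, 3.42 and 4.28 in NTC and 4.35, 4.56 and 4.36 with guide 2. In the baricitinib experiment Adar without drug was 7.42, 6.52 and 6.37 in Adar1 KO and 5.12, 4.94 and 4.69 in NTC macrophages, a difference of 1.85 (adjusted p 0.0051). At 10 uM the order was the opposite, with 1.55, 2.15, 2.91 and 2.03 in Adar1 KO and 3.70, 3.64 and 3.22 in NTC, a difference of -1.36 (adjusted p 0.0146). From the lowest to the highest middle dose, Adar in Adar1 KO was 5.90, 5.94 and 6.21, then 6.25, 5.90 and 6.37, then 4.12, 7.38 and 4.21.

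Promoters are shown for Irf1 and Irf7, known to be transcribed in response to interferon, for the lineage factor Irf8 and for Irf2. All 7 members matched the RefSeq promoter table (build GRCm38.p6, 250 bases before to 50 after the start), and Irf1 and Irf8 have a further entry each, not shown. Capitals mark matches to the core of the interferon-stimulated response element, GAAANNGAAA (reverse strand TTTCNNTTTC), and to the core of the gamma-activated site, TTCNNNGAA, which reads the same on both strands. No match of one motif overlapped a match of the other.
Irf1, chr11:53769764-53770063, plus strand: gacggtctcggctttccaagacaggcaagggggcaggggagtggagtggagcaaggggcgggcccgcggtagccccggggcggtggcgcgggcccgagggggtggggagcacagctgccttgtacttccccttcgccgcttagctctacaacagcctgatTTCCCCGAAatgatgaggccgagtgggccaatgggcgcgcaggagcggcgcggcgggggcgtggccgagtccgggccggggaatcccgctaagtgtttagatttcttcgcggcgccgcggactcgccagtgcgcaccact
Irf2, chr8:46739495-46739794, plus strand: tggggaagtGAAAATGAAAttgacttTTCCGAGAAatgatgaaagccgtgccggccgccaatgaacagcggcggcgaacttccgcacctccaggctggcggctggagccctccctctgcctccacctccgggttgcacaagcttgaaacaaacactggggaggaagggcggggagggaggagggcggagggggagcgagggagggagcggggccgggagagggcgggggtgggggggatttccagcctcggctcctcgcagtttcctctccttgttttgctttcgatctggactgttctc
Irf7, chr7:141266375-141266674, minus strand: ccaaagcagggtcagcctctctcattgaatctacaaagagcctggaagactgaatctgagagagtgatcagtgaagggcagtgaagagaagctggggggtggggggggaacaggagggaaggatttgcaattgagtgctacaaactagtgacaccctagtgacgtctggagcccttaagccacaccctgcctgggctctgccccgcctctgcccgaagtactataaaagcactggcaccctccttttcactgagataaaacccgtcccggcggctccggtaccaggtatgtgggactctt
Irf8, chr8:120736108-120736407, plus strand: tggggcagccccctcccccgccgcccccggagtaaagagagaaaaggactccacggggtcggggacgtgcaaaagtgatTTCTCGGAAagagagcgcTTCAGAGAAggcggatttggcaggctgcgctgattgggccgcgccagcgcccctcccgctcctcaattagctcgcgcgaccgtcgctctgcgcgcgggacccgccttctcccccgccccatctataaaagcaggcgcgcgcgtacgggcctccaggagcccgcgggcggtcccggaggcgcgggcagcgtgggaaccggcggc
The gamma-activated core lay at first base -90 in Irf1 (TTCCCCGAA), -224 in Irf2 (TTCCGAGAA), and -171 (TTCTCGGAA) and -153 (TTCAGAGAA) in Irf8, counted from the start. The response element core lay at -241 in Irf2 (GAAAATGAAA). Irf7, Irf3, Irf4 and Irf5 held neither set of letters in this window. Of 32851 promoters of this length, 3.44% held the response element core and 8.3% the gamma-activated core. These matches are letters in a window and were not tested for binding.

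Marrow monocytes had more RNA of the Toll-like receptor factor Irf5 than marrow progenitors. Irf5 stood at 5.14, 6.10 and 5.80 log2 CPM in progenitors and at 8.57, 8.79 and 8.56 in monocytes. All monocyte libraries were above all progenitor libraries. The difference was 2.96 (95% interval 1.04 to 4.87, adjusted p 0.0453). It was the only 1 of 7 IRFs called, against 13.8% of all genes tested, and leaving out any 1 library of the progenitors, the monocytes or the day 4 ER-Hoxb8 cells ended the call (adjusted p 0.0553 to 0.167).

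Irf7 and Irf2 were also higher in each monocyte library than in each progenitor library. Irf7 stood at 3.32, 3.82 and 4.25 in progenitors and 5.75, 6.20 and 5.51 in monocytes, a difference of 2.02 (adjusted p 0.0886) that did not pass. Without ER-Hoxb8 progenitors replicate 2 or 3, which enter only the shared estimate of the spread, its adjusted p was 0.0252 or 0.00369. Irf2 differed by 1.03 (adjusted p 0.0684), which did not pass either, and its adjusted p was 0.0327 or 0.0161 without replicate 2 or 3 of that group. The lineage factor Irf8 was at 7.05, 7.80 and 7.78 in progenitors and 7.14, 7.81 and 7.36 in monocytes. These ranges overlap, and the difference was -0.11 (adjusted p 0.959).

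ER-Hoxb8 progenitors had less Irf8 RNA than marrow progenitors, a comparison that shares its marrow libraries with the one before. Irf8 stood at 2.07, 7.68 and 2.99 in the 3 ER-Hoxb8 libraries. Replicates 1 and 3 were far below the marrow progenitors, and replicate 2, the library with high macrophage markers, was within their range. The 4 B cell markers summed to 140, 835 and 518 CPM in the marrow progenitors and to 1.01, 0.814 and 17.7 CPM in the ER-Hoxb8 progenitors, and their part in the Irf8 and Irf4 values was not tested. By the written methods of the study, marrow progenitors had been enriched as lineage-negative cells with a depletion kit. The Irf8 difference was -3.29 (95% interval -5.65 to -0.94, adjusted p 0.043), the only call among 7 IRFs, against 25.5% of all genes. Without replicate 2 it was -5.01 (adjusted p 9.14e-06). Leaving out replicate 1 gave -2.21 (adjusted p 0.164) and leaving out replicate 3 gave -2.67 (adjusted p 0.0974). The call also ended without any 1 library of the marrow progenitors (adjusted p 0.0797, 0.115 and 0.117), and without any 1 monocyte or day 4 library (adjusted p 0.0543 to 0.0611).

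Irf4 varied within the same groups of progenitors. It stood at 1.96, 4.94 and 4.75 in marrow progenitors and 1.78, 1.68 and -4.34 in ER-Hoxb8 progenitors, where replicate 3 was at the lowest value of its set. Marrow progenitors replicate 1, the lowest of its group for Irf4, was also the lowest for the B cell marker Cd79a, at 5.83 against 8.57 and 8.10. Every ER-Hoxb8 library was below every marrow library. The difference of -4.18 (adjusted p 0.0644) did not pass with all libraries and was -5.17 (adjusted p 0.0343) without ER-Hoxb8 progenitors replicate 2 and -5.21 (adjusted p 0.0465) without replicate 1. Both of these fits keep replicate 3, at -4.34, while replicates 1 and 2 lay just below the lowest marrow library at 1.96. The size of the Irf4 difference thus rested in part on replicate 3. Irf7 differed by -1.18 (adjusted p 0.267), and by -2.03 (adjusted p 0.0296) without replicate 2. It stood at 3.06, 4.31 and 0.46 in ER-Hoxb8 progenitors and 3.32, 3.82 and 4.25 in marrow progenitors. Replicates 1 and 2 lay just outside the marrow range, below and above it, so the Irf7 difference rested mainly on replicate 3.

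During ER-Hoxb8 differentiation the call depended on the same library, the one that resembled day 4 cells. Irf8 at day 4 stood at 5.84, 6.75 and 6.90, above replicates 1 and 3 of the progenitors and below replicate 2. With all libraries limma called 0 of 7 IRFs, 0 at unadjusted p under 0.05, against 0% of all genes, and Irf8 differed by 2.25 (adjusted p 0.533). Without progenitors replicate 2, 3 of 7 IRFs rose by day 4, with 11.1% of all genes called in that fit: Irf8 by 3.97 (adjusted p 0.000179), Irf5 by 3.08 (adjusted p 0.00312) and Irf7 by 2.35 (adjusted p 0.0338).

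Day 4 ER-Hoxb8 cells had less Irf7 RNA than marrow monocytes in every library. Irf7 was at 4.30, 3.80 and 4.23 at day 4, below the lowest monocyte library at 5.51. The difference of -1.71 (adjusted p 0.144) did not pass. Limma called 0 of 7 IRFs here, 1 at unadjusted p under 0.05, against 17.5% of all genes. Without ER-Hoxb8 progenitors replicate 2 or 3 the adjusted p was 0.0478 or 0.0066.

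Placed in order of mean level among these 4 groups, Irf7 ran from monocytes (5.82, SD 0.35) to day 4 cells (4.11, SD 0.27), marrow progenitors (3.80, SD 0.46) and ER-Hoxb8 progenitors (2.61, SD 1.96). Here and below, a step is called beyond the spread when it exceeds the SDs of both groups added together. For Irf7 only the step from monocytes to day 4 cells was larger than the spread. The order for Irf5 was monocytes (8.64, SD 0.13), day 4 cells (7.69, SD 0.73), ER-Hoxb8 progenitors (5.90, SD 2.35) and marrow progenitors (5.68, SD 0.49). Again only the first step exceeded the spread. For Irf8 the order was marrow progenitors (7.54, SD 0.42), monocytes (7.43, SD 0.34), day 4 cells (6.50, SD 0.57) and ER-Hoxb8 progenitors (4.25, SD 3.01), with monocytes and day 4 cells apart beyond the spread. Means of Irf1 lay between 4.73 and 5.53, of Irf2 between 6.13 and 7.16, of Irf3 between 2.21 and 3.33 and of Irf4 between -0.29 and 3.88. No neighbours in the order of these 4 members differed beyond their spread.

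**Figure D1:**
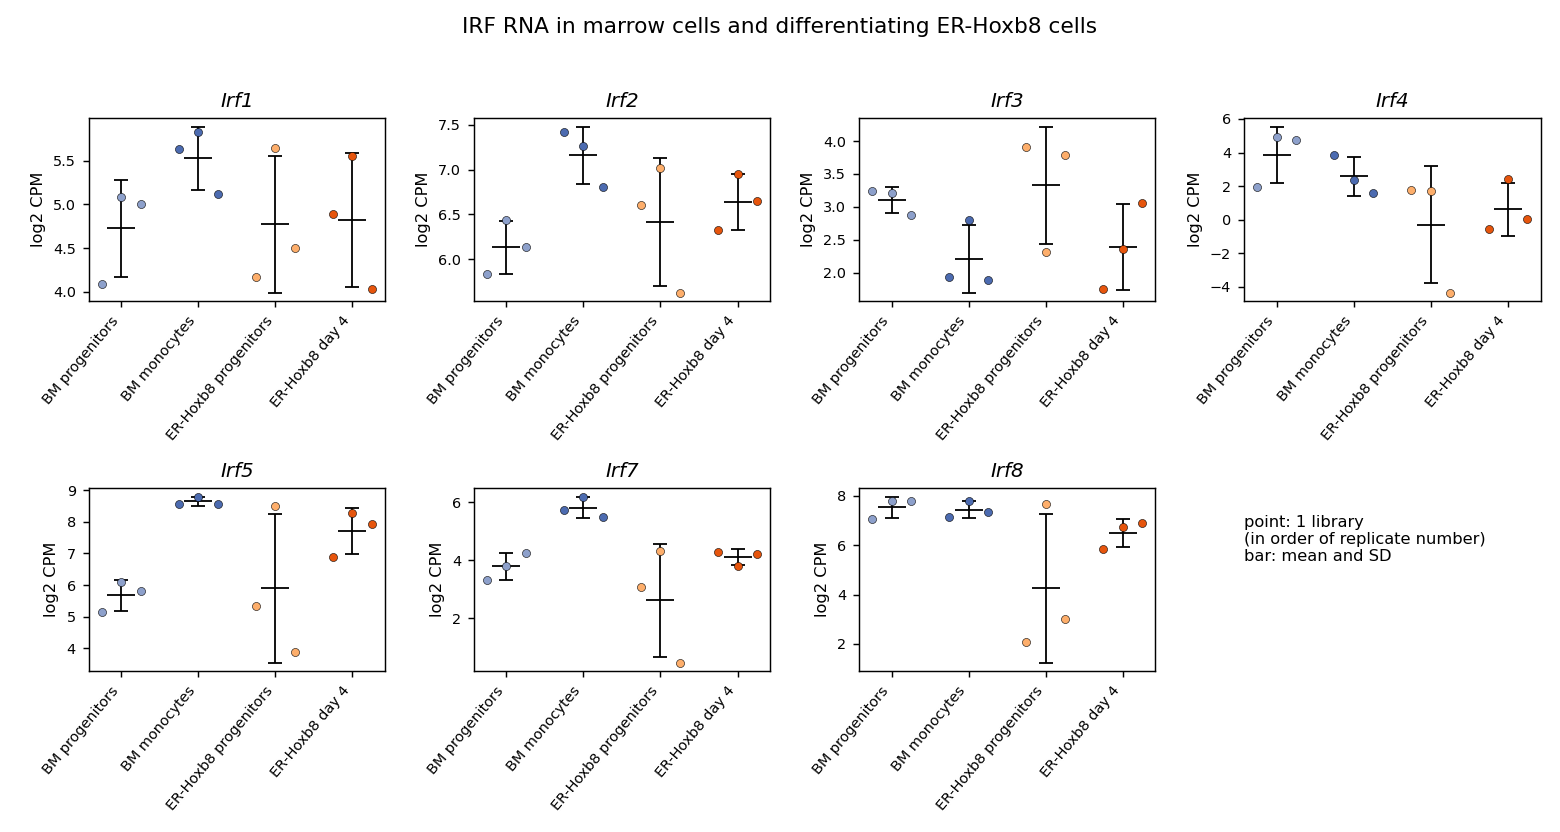
Level in log2 CPM (y axis) of each IRF in the 4 groups of marrow and ER-Hoxb8 cells (x axis), with 1 point per library in order of replicate number and a bar for mean and SD. Irf5 in monocytes lies at 8.56 to 8.79, above all marrow progenitor libraries, and ER-Hoxb8 progenitors replicate 2 lies at 7.68 for Irf8 where replicates 1 and 3 lie at 2.07 and 2.99.

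The interferon-induced factors Irf1 and Irf7 were high in ER-Hoxb8 cells taken from the brain. Irf1 in ER-Hoxb8 MLCs had a lowest value of 7.14 (median 8.73, highest 9.66), and in ER-Hoxb8 macrophages in vitro it stood at 5.38, 5.51 and 5.22. Irf1 in BMD MLCs had a lowest value of 5.11 (median 5.83, highest 6.17), and in microglia of 3.89 (median 5.06, highest 5.99). All ER-Hoxb8 MLC libraries were above all other libraries of the set, while BMD MLCs, BMD macrophages at 5.49, 5.74 and 5.16, ER-Hoxb8 macrophages and microglia overlapped. ER-Hoxb8 MLCs exceeded ER-Hoxb8 macrophages by 3.11 (95% interval 2.17 to 4.06, adjusted p 1.22e-05), microglia by 3.58 (95% interval 2.88 to 4.29, adjusted p 3.77e-09) and BMD MLCs by 2.77 (95% interval 2.00 to 3.54, adjusted p 8.04e-06). Without replicate 6 these were 3.02 (adjusted p 3.46e-05), 3.49 (adjusted p 3.49e-08) and 2.68 (adjusted p 4.18e-05). In bulk RNA, fewer cells of a type and less RNA per cell cannot be told apart.

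Irf7, the factor for interferon alpha genes, spread more widely. Its lowest value in ER-Hoxb8 MLCs was 5.66 (median 7.26, highest 9.11), in BMD MLCs 2.71 (median 4.29, highest 5.00) and in microglia -2.26 (median 1.72, highest 2.27). In vitro it stood at 4.23, 4.14 and 2.89 in ER-Hoxb8 macrophages and 4.19, 3.48 and 4.72 in BMD macrophages. Every ER-Hoxb8 MLC library was above every library of the other groups, and every microglia library was below all others. ER-Hoxb8 MLCs exceeded ER-Hoxb8 macrophages by 3.59 (95% interval 1.75 to 5.43, adjusted p 0.00333), BMD MLCs by 3.32 (95% interval 1.82 to 4.83, adjusted p 0.00264) and microglia by 6.33 (95% interval 4.96 to 7.70, adjusted p 2.32e-08). BMD MLCs exceeded microglia by 3.00 (95% interval 1.63 to 4.37, adjusted p 0.00151), and microglia differed from BMD macrophages by -3.11 (95% interval -4.85 to -1.38, adjusted p 0.00465). Without ER-Hoxb8 MLCs replicate 6, the first 3 differences were 3.24 (adjusted p 0.00762), 2.97 (adjusted p 0.0087) and 5.97 (adjusted p 1.75e-07). Without the YSWT libraries, microglia replicates 8 and 9, Irf7 in ER-Hoxb8 MLCs exceeded microglia by 6.04 (adjusted p 1.38e-08), BMD MLCs exceeded them by 2.72 (adjusted p 0.00155), and microglia differed from BMD macrophages by -2.83 (adjusted p 0.00355).

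The ER-Hoxb8 MLC libraries carry a pair of name series in their labels, GFPHox for replicates 1 to 3 and WTHox, with the ending Lo, for replicates 4 to 6. Neutrophil markers summed to 737, 230 and 315 CPM in the GFPHox libraries and 17634, 40468 and 3262 CPM in the WTHox libraries. Csf1r stood at 11.37, 10.23 and 10.33 log2 CPM and at 8.61, 7.97 and 6.08. The part of these differences in the IRF results was not tested. Irf1 exceeded ER-Hoxb8 macrophages by 3.70 (adjusted p 1.94e-06) in the GFPHox libraries and by 2.52 (adjusted p 0.000467) in the WTHox libraries. Irf7 did so by 4.03 (adjusted p 0.00399) and 3.15 (adjusted p 0.021). Against microglia Irf1 was called in BMD MLCs when microglia replicate 9 was left out (0.95, adjusted p 0.0458) and with a replicate block (0.87, adjusted p 0.014), and with all libraries and no block the difference was 0.81 (adjusted p 0.0987).

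The brain effect on Irf1, MLCs against macrophages in vitro, differed between the cell sources. By their labels the ER-Hoxb8 macrophages come from a Cas9 heterozygous mouse and the ER-Hoxb8 MLCs have the genotype WT, so the donor line may differ, and line and brain cannot be told apart. In the written methods of the study, cells from brain were homogenised, sorted and extracted with another kit than cultured cells. RNA of cells from brain often could not be quantified. Handling and brain thus cannot be told apart in any comparison of MLCs or microglia with macrophages in vitro. Irf1 in BMD MLCs differed from BMD macrophages by 0.25 (adjusted p 0.715), and the brain effect in ER-Hoxb8 cells exceeded that in marrow cells by 2.86 (95% interval 1.53 to 4.20, adjusted p 0.0116). This was 1 of 7 IRFs called for that difference, against 3.28% of all genes, and it was 2.77 (adjusted p 0.0182) without ER-Hoxb8 MLCs replicate 6 and 2.28 (adjusted p 0.0515) with the WTHox libraries only. For Irf7 the same difference was 3.70 (adjusted p 0.115), not called, with an adjusted p of 0.0415 when microglia replicate 8 was left out of the fit. It was also called with a pseudocount of 1 (3.59, adjusted p 0.0359) and with a replicate block (3.70, adjusted p 0.0294).

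Irf8, the lineage factor, was higher in ER-Hoxb8 MLCs than in ER-Hoxb8 macrophages. Its lowest value in microglia was 7.78 (median 8.76, highest 9.33), in BMD MLCs 7.76 (median 7.92, highest 8.21) and in ER-Hoxb8 MLCs 7.24 (median 8.57, highest 9.33). In ER-Hoxb8 macrophages it stood at 7.06, 7.11 and 6.09 and in BMD macrophages at 5.94, 7.96 and 8.12. Each ER-Hoxb8 MLC library was above each ER-Hoxb8 macrophage library, and BMD macrophages replicate 1 was far below its own group. ER-Hoxb8 MLCs exceeded ER-Hoxb8 macrophages by 1.64 (95% interval 0.67 to 2.61, adjusted p 0.00928), and by 1.66 (adjusted p 0.012) without ER-Hoxb8 MLCs replicate 6. The call was absent in the WTHox libraries alone (0.91, adjusted p 0.146) and without ER-Hoxb8 macrophages replicate 3 (1.31, adjusted p 0.073). Microglia exceeded BMD macrophages by 1.22 (95% interval 0.30 to 2.14, adjusted p 0.0305), and by 0.52 (adjusted p 0.405) without BMD macrophages replicate 1.

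Irf3, which is activated after translation rather than by transcription, was lower in ER-Hoxb8 MLCs than in their macrophages. In ER-Hoxb8 macrophages it stood at 3.41, 3.52 and 3.45 and in BMD macrophages at 2.85, 3.24 and 3.66. In ER-Hoxb8 MLCs its lowest value was -3.62 (median 0.90, highest 1.49), in BMD MLCs -0.70 (median 0.96, highest 2.31) and in microglia 0.45 (median 2.31, highest 3.77). Both MLC groups lay below the macrophages of their own source in every library. ER-Hoxb8 MLCs differed from ER-Hoxb8 macrophages by -3.33 (95% interval -5.15 to -1.51, adjusted p 0.00534), and by -3.42 (adjusted p 0.00636) without ER-Hoxb8 MLCs replicate 6. BMD MLCs differed from BMD macrophages by -2.24 (adjusted p 0.0555), which did not pass with all libraries and had an adjusted p of 0.0144 without ER-Hoxb8 MLCs replicate 5, 0.0407 without BMD MLCs replicate 5, 0.0436 without BMD MLCs replicate 2 and 0.047 without microglia replicate 8. The difference between the brain effects was -1.09 (adjusted p 0.765).

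Irf3 and Irf4 were lower in ER-Hoxb8 MLCs than in microglia, by a test that depended on single libraries. For Irf3 the difference was -1.90 (95% interval -3.25 to -0.54, adjusted p 0.027). It did not pass without ER-Hoxb8 MLCs replicate 2 (-1.81, adjusted p 0.051) or 5 (-1.15, adjusted p 0.114), without microglia replicate 9 (-1.68, adjusted p 0.0539), without the YSWT libraries (-1.52, adjusted p 0.0773), with a replicate block (-1.72, adjusted p 0.0722), with only the compared groups in the fit (-1.90, adjusted p 0.0732) or with the GFPHox libraries only (-1.25, adjusted p 0.177). With the WTHox libraries only it was -2.55 (adjusted p 0.0202), and without ER-Hoxb8 MLCs replicate 6 -1.98 (adjusted p 0.0333). Irf4 had a lowest value of -3.62 (median -1.39, highest 4.02) in ER-Hoxb8 MLCs and of 0.63 (median 1.81, highest 2.44) in microglia. In ER-Hoxb8 MLCs 2 libraries were at the lowest value of the set while replicate 3 was above all microglia. The Irf4 difference was -2.44 (95% interval -4.22 to -0.67, adjusted p 0.0291), and it did not pass without ER-Hoxb8 MLCs replicate 2, 4 or 5 (-2.03, -1.87 and -1.87, adjusted p 0.0842, 0.0988 and 0.105) with only the compared groups in the fit (-2.44, adjusted p 0.0733), with a pseudocount of 1 (-0.90, adjusted p 0.153) or with the GFPHox libraries only (-1.27, adjusted p 0.349). With the WTHox libraries only it was -3.62 (adjusted p 0.00193), and without ER-Hoxb8 MLCs replicate 6 -2.88 (adjusted p 0.0144).

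Against BMD MLCs, Irf4 in ER-Hoxb8 MLCs differed by -2.62 (adjusted p 0.061). BMD MLCs had a lowest Irf4 value of 0.69 (median 1.64, highest 3.63). The groups overlap, and the difference passed the test without ER-Hoxb8 MLCs replicate 3 (-3.58, adjusted p 0.00355), without replicate 6 (-3.06, adjusted p 0.0347) and, at an unchanged difference, without microglia replicate 8 (adjusted p 0.0489). Against ER-Hoxb8 macrophages, at -0.40, 1.85 and 1.02, it differed by -1.58 (adjusted p 0.296), and by -2.54 (adjusted p 0.039) without ER-Hoxb8 MLCs replicate 3. With the WTHox libraries only, Irf4 in ER-Hoxb8 MLCs was lower than in BMD MLCs (-3.79, adjusted p 0.00612) and than in ER-Hoxb8 macrophages (-2.76, adjusted p 0.041), and the brain effects differed by -5.01 (adjusted p 0.0418). With the GFPHox libraries only these were -1.45 (adjusted p 0.374), -0.41 (adjusted p 0.819) and -2.67 (adjusted p 0.346).

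Counted over the family, 4 of 7 IRFs were called in ER-Hoxb8 MLCs against ER-Hoxb8 macrophages, with 34.8% of all genes. Against microglia 4 of 7 were called in ER-Hoxb8 MLCs, with 33.9% of all genes, and 1 of 7 in BMD MLCs, with 20.5% of all genes. Between ER-Hoxb8 MLCs and BMD MLCs 2 of 7 were called, with 15.2% of all genes. Microglia against BMD macrophages gave 2 of 7, with 40.8% of all genes. BMD MLCs against BMD macrophages gave 0 of 7 by limma, 2 at unadjusted p under 0.05, with 30.6% of all genes. ER-Hoxb8 against BMD macrophages gave 0 of 7 by limma, 0 at unadjusted p under 0.05, with 1.96% of all genes. These comparisons share groups, and the median log2 difference of all genes was -0.15, -0.10 and -0.22 in ER-Hoxb8 MLCs against ER-Hoxb8 macrophages, microglia and BMD MLCs and -0.20 for the difference of brain effects, while the IRF values above are not corrected for it.

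In order of mean level, Irf7 ran from ER-Hoxb8 MLCs (7.34, SD 1.57) to BMD macrophages (4.13, SD 0.62), BMD MLCs (4.02, SD 1.00), ER-Hoxb8 macrophages (3.75, SD 0.75) and microglia (1.02, SD 1.58). The middle 3 did not differ beyond their spread. For Irf1 the order was ER-Hoxb8 MLCs (8.48, SD 0.95), BMD MLCs (5.71, SD 0.46), BMD macrophages (5.46, SD 0.29), ER-Hoxb8 macrophages (5.37, SD 0.15) and microglia (4.90, SD 0.72), with only the first step beyond the spread. Irf8 ran from microglia (8.56, SD 0.62) through ER-Hoxb8 MLCs (8.39, SD 0.88), BMD MLCs (7.96, SD 0.18) and BMD macrophages (7.34, SD 1.22) to ER-Hoxb8 macrophages (6.75, SD 0.57), with no step beyond it. Irf3 ran from ER-Hoxb8 macrophages (3.46, SD 0.06) through BMD macrophages (3.25, SD 0.41), microglia (2.02, SD 1.10) and BMD MLCs (1.01, SD 1.16) to ER-Hoxb8 MLCs (0.13, SD 1.96), again with no step beyond the spread.

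Irf5 had its highest group mean in BMD macrophages, although microglia replicate 9, at 8.67, was above all of their libraries. Irf2 was level across the set. Irf5 stood at 8.05, 8.11 and 8.08 in BMD macrophages, above ER-Hoxb8 macrophages at 7.10, 7.75 and 6.66 in every library, a step beyond the spread. Means in the other groups were 7.17, SD 0.55 in ER-Hoxb8 macrophages, 7.08, SD 1.00 in microglia, 6.91, SD 0.84 in ER-Hoxb8 MLCs and 6.67, SD 0.73 in BMD MLCs, none apart beyond the spread. BMD MLCs differed from BMD macrophages by -1.41 (adjusted p 0.0517), with every BMD MLC library below every BMD macrophage library, and this did not pass with all libraries. It passed without BMD MLCs replicate 1 (-1.56, adjusted p 0.0398). At an unchanged difference it also passed without ER-Hoxb8 MLCs replicate 3 or 5 (adjusted p 0.0491 and 0.0399) and without microglia replicate 4, 5, 8 or 9 (adjusted p 0.0443, 0.0360, 0.0438 and 0.0357). Irf2 means lay between 6.85 and 7.03 in the 5 groups, and Irf4 means between -0.76 and 1.86, with no neighbours apart beyond the spread.

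**Figure D2:**
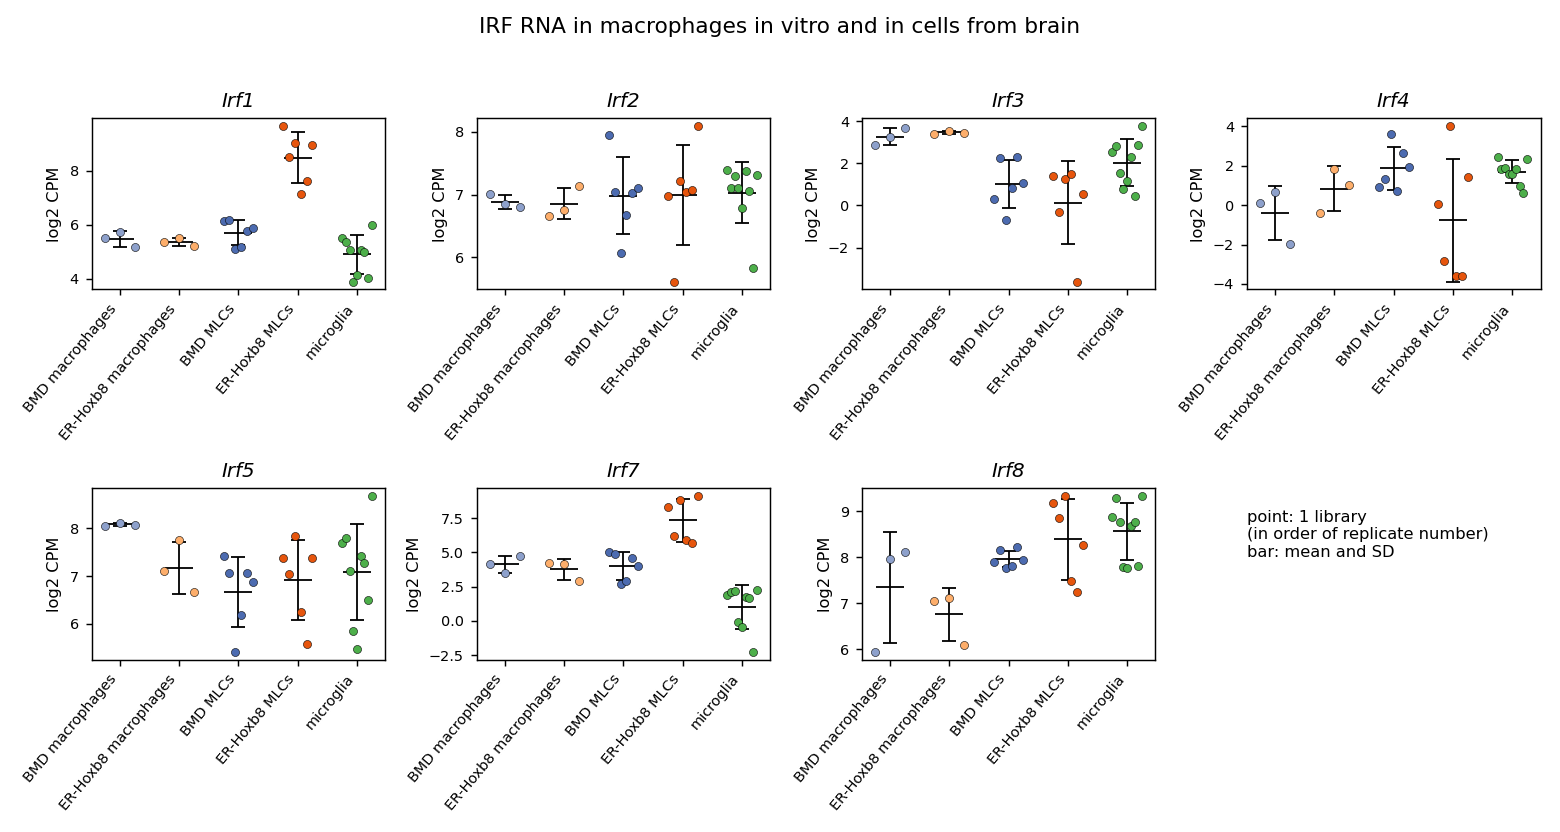
Level in log2 CPM (y axis) of each IRF in macrophages in vitro, MLCs from Csf1r-/- brains and microglia (x axis), with 1 point per library and a bar for mean and SD. ER-Hoxb8 MLCs lie at 7.14 to 9.66 for Irf1 and 5.66 to 9.11 for Irf7, above every library of the other groups.

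Markers of other cells differed among these groups. All 6 neutrophil markers were measured, and their sums were 6870, 4096, 28113, 31774, 30566 and 29615 CPM in BMD MLCs and 737, 230, 315, 17634, 40468 and 3262 CPM in ER-Hoxb8 MLCs, led by Ngp in all but the last, where S100a8 led. In microglia they summed to 403 to 5764 CPM. The 3 T and NK cell markers, led by Nkg7, summed to 22.9, 22.9, 156, 3.75, 21.2 and 401 CPM in ER-Hoxb8 MLCs and to 3.11 to 14.2 CPM in BMD MLCs. The 4 B cell markers summed to 79.3 CPM in ER-Hoxb8 MLCs replicate 3 and to 2.13 to 20.9 CPM in the other libraries of the group. Of 3 plasmacytoid dendritic cell markers 1 was at the lowest value in every library of the set, and the sum was 2.19 to 10.4 CPM in ER-Hoxb8 MLCs. The 7 genes induced by tissue dissociation, led by Fos or Ier2 in MLCs, summed to 89.9 to 598 CPM in ER-Hoxb8 MLCs, 95.2 to 371 CPM in BMD MLCs and 20.2 to 126 CPM in microglia. The part of these cells and genes in the IRF results was not tested.

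Genes that IRFs are known to drive were higher in ER-Hoxb8 MLCs too. Of 8 listed targets of IRF3 and IRF7, 6 were tested and all 6 rose against ER-Hoxb8 macrophages, with a median log2 difference of 5.09 beside -0.15 for all genes, of which 34.8% were called in either direction. The largest was that of the chemokine Cxcl10, 9.88 (adjusted p 3.16e-10), and the smallest that of Ifit2, 4.90 (adjusted p 1.42e-05). The same 6 were higher than in BMD MLCs, with a median of 5.17 beside -0.22 for all genes, of which 15.2% were called. Of 8 listed targets of IRF1, 7 were tested and 6 rose against ER-Hoxb8 macrophages, with a median of 6.86 and the largest value for the GTPase Gbp2, 10.68 (adjusted p 1.52e-09). Cd274 was the exception, 0.95 (adjusted p 0.292). In BMD MLCs against BMD macrophages, 3 of 6 targets of IRF3 and IRF7 rose (median 1.29 beside -0.01), and 2 of 7 targets of IRF1 rose while 1 fell (median 0.50), with 30.6% of all genes called.

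Kinases and adaptors upstream of the IRFs were not called higher in ER-Hoxb8 MLCs than in ER-Hoxb8 macrophages. Of 11 tested with limma, 0 were higher and 2 lower, with 0 higher and 3 lower at unadjusted p under 0.05, in ER-Hoxb8 MLCs than in ER-Hoxb8 macrophages, with a median of -0.26. These were Ikbke, the gene of an IRF3 and IRF7 kinase, -4.14 (adjusted p 0.00208), and the adaptor gene Mavs, -2.25 (adjusted p 0.0187). Ikbke was higher than in BMD MLCs by 4.45 (adjusted p 0.000337). Of 12 listed partners and regulators of IRFs, 5 rose and 1 fell against ER-Hoxb8 macrophages, with a median of 0.92, where 34.8% of all genes were called. The largest rise was that of Batf3, 6.04 (adjusted p 4.3e-08). Irf9, the gene of a STAT2 partner, rose by 1.15 (adjusted p 0.00114) in ER-Hoxb8 cells and by 0.93 (adjusted p 0.00708) in marrow cells.

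Genes linked to IRF8, IRF4 and IRF5 were compared in the same way, with 34.8% of all genes called in ER-Hoxb8 MLCs against ER-Hoxb8 macrophages and 30.6% in BMD MLCs against BMD macrophages. Of 7 tested genes that depend on IRF8, 3 rose in ER-Hoxb8 MLCs against ER-Hoxb8 macrophages (median 1.44), led by Ly86, 9.00 (adjusted p 3.91e-15), and 4 in BMD MLCs against BMD macrophages (median 1.99). Of 6 genes linked to IRF4, 3 were tested and 2 rose in ER-Hoxb8 MLCs, with the largest value for Chil3, 4.37 (adjusted p 0.0121). Of 4 cytokine genes linked to IRF5, 2 were tested and Il1b rose, 6.39 (adjusted p 3.62e-07), while Tnf did not pass, 2.06 (adjusted p 0.0821).

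In cells with a guide against Adar, Irf7 was high in macrophages and low in progenitors. In macrophages Irf7 stood at 10.01, 10.15 and 9.44 with guide 1 and at 4.22 and 4.28 in NTC libraries 1 and 3, with 4.18 in replicate 2. In progenitors it stood at 0.25, 0.68 and -0.35 with guide 1 and -0.32, -0.45 and -0.04 in NTC. The macrophage groups did not overlap and the progenitor groups did. In the written methods of the study, replicates of edited macrophages in its assays were differentiated independently. The labels name no separate lines within a guide. Intervals and p for guide 1 against NTC, here and with baricitinib, may thus measure spread between cultures only. Spread between edited lines was not tested. Guide 1 macrophages exceeded NTC macrophages by 5.61 (95% interval 4.97 to 6.26, adjusted p 3.05e-07), 1 of 6 IRFs called, against 21.8% of all genes. With NTC macrophages replicate 2 included it was 5.64 (adjusted p 1.61e-08). In progenitors the difference was 0.46 (adjusted p 0.909), where limma called 0 of 6 IRFs, 1 at unadjusted p under 0.05, against 0.936% of all genes. The interaction, the guide effect in macrophages minus that in progenitors, was 5.15 (95% interval 4.29 to 6.02, adjusted p 1.17e-05), and 5.18 (adjusted p 1.72e-06) with that library included.

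Irf1 was higher in each guide 1 macrophage library than in each NTC library. It stood at 6.53, 6.37 and 6.16 with guide 1 and 5.62 and 5.70 in NTC libraries 1 and 3. The difference of 0.69 (adjusted p 0.0726) did not pass. Deviations of same-numbered libraries in these groups correlated at 0.153 and 0.158, and with a replicate block the difference was 0.79 (adjusted p 0.0203). With only the compared groups in the fit it was 0.69 (adjusted p 0.0208). With NTC macrophages replicate 2, at 5.76, added to the group it was 0.66 (adjusted p 0.0368). Without guide 1 progenitors replicate 1 or NTC progenitors replicate 2, which enter only the estimate of the spread, the adjusted p was 0.0401 or 0.0492.

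The guide effect on Irf5 differed between the cell stages. In progenitors it stood at 3.99, 4.05 and 3.71 with guide 1 and 3.42, 3.17 and 3.43 in NTC, and in macrophages at 6.97, 7.15 and 7.10 with guide 1 and 7.10 and 7.40 in NTC. The progenitor groups did not overlap and the macrophage groups did. Neither difference passed: 0.57 (adjusted p 0.0981) in progenitors and -0.18 (adjusted p 0.43) in macrophages. The interaction was -0.75 (95% interval -1.19 to -0.31, adjusted p 0.0297), so that 2 of 6 IRFs were called for it, against 13.6% of all genes. It did not pass without guide 1 progenitors replicate 1 or 2, guide 1 macrophages replicate 1 or 2, NTC progenitors replicate 2 or NTC macrophages replicate 3 (-0.79 to -0.60, adjusted p 0.0548 to 0.116).

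Between progenitors and macrophages most genes of any kind were called, IRFs among them. In NTC cells 6 of 6 IRFs were called between progenitors and macrophages, against 71.8% of all genes, and in guide 1 cells 6 of 6, against 71.3%. Irf8 stood at 3.37, 3.05 and 3.71 in NTC progenitors and 6.62 and 7.27 in NTC macrophages, a rise of 3.57 (95% interval 3.04 to 4.09, adjusted p 1.1e-07). Irf5 rose by 3.91 (95% interval 3.58 to 4.24, adjusted p 1.1e-09), Irf7 by 4.52 (95% interval 3.88 to 5.16, adjusted p 8.58e-08), Irf2 by 2.27 (95% interval 2.01 to 2.53, adjusted p 1.37e-08) and Irf1 by 1.68 (95% interval 1.13 to 2.24, adjusted p 9.37e-05). For each of these 5 every macrophage library was above every progenitor library. Irf3 was the exception, at 3.25, 4.93 and 3.30 in NTC progenitors and 1.84 and 1.95 in NTC macrophages, a change of -1.93 (95% interval -3.17 to -0.70, adjusted p 0.0089).

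With guide 1 the rise of Irf7 from progenitors to macrophages was 9.67 (95% interval 9.10 to 10.25, adjusted p 9.64e-11). The other rises there were 4.16 (adjusted p 1.09e-08) for Irf8, 3.16 (adjusted p 2.4e-09) for Irf5, 2.22 (adjusted p 3.51e-06) for Irf1 and 1.91 (adjusted p 1.95e-08) for Irf2. Irf3 changed by -2.60 (adjusted p 0.000632).

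Guide 2 libraries form a set without an NTC group and were compared only with each other. Irf7 stood at 1.47, 0.76 and 0.31 in progenitors and 9.66, 9.75, 9.63, 9.74 and 9.80 in macrophages. All macrophage libraries were far above all progenitor libraries. The rise was 8.87 (95% interval 8.42 to 9.32, adjusted p 4.95e-11), and 5 of 6 IRFs were called, all higher, against 81.3% of all genes. The other rises were 3.65 (adjusted p 2.22e-10) for Irf5, 3.13 (adjusted p 3.08e-06) for Irf8, 1.43 (adjusted p 2.49e-09) for Irf2 and 1.23 (adjusted p 7.33e-08) for Irf1. Irf3 did not pass, at 4.84, 3.95 and 3.65 in progenitors and 3.10, 4.28, 4.04, 3.81 and 3.28 in macrophages, a difference of -0.44 (adjusted p 0.222).

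Ranked by mean in the guide 1 set, Irf7 ran from guide 1 macrophages (9.86, SD 0.38) to NTC macrophages (4.25, SD 0.04), guide 1 progenitors (0.19, SD 0.52) and NTC progenitors (-0.27, SD 0.21). The progenitor groups did not differ beyond their spread. Irf1 had the same order, with 6.35, SD 0.19, 5.66, SD 0.05, 4.13, SD 0.41 and 3.98, SD 0.39, and again only the progenitors were within the spread. Irf2 ran from NTC macrophages (7.32, SD 0.13) to guide 1 macrophages (7.06, SD 0.10), guide 1 progenitors (5.15, SD 0.04) and NTC progenitors (5.05, SD 0.15), the progenitors within the spread. Irf8 ran from guide 1 macrophages (7.30, SD 0.17) and NTC macrophages (6.95, SD 0.47) to NTC progenitors (3.38, SD 0.33) and guide 1 progenitors (3.14, SD 0.26), apart beyond the spread only between the cell stages. Irf3 had the reverse order of stages, from guide 1 progenitors (3.99, SD 0.87) and NTC progenitors (3.82, SD 0.95) to NTC macrophages (1.89, SD 0.08) and guide 1 macrophages (1.39, SD 0.54), likewise apart only between stages. Irf5 ran from NTC macrophages (7.25, SD 0.21) and guide 1 macrophages (7.07, SD 0.09), within the spread of each other, to guide 1 progenitors (3.91, SD 0.18) and NTC progenitors (3.34, SD 0.15).

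**Figure D3:**
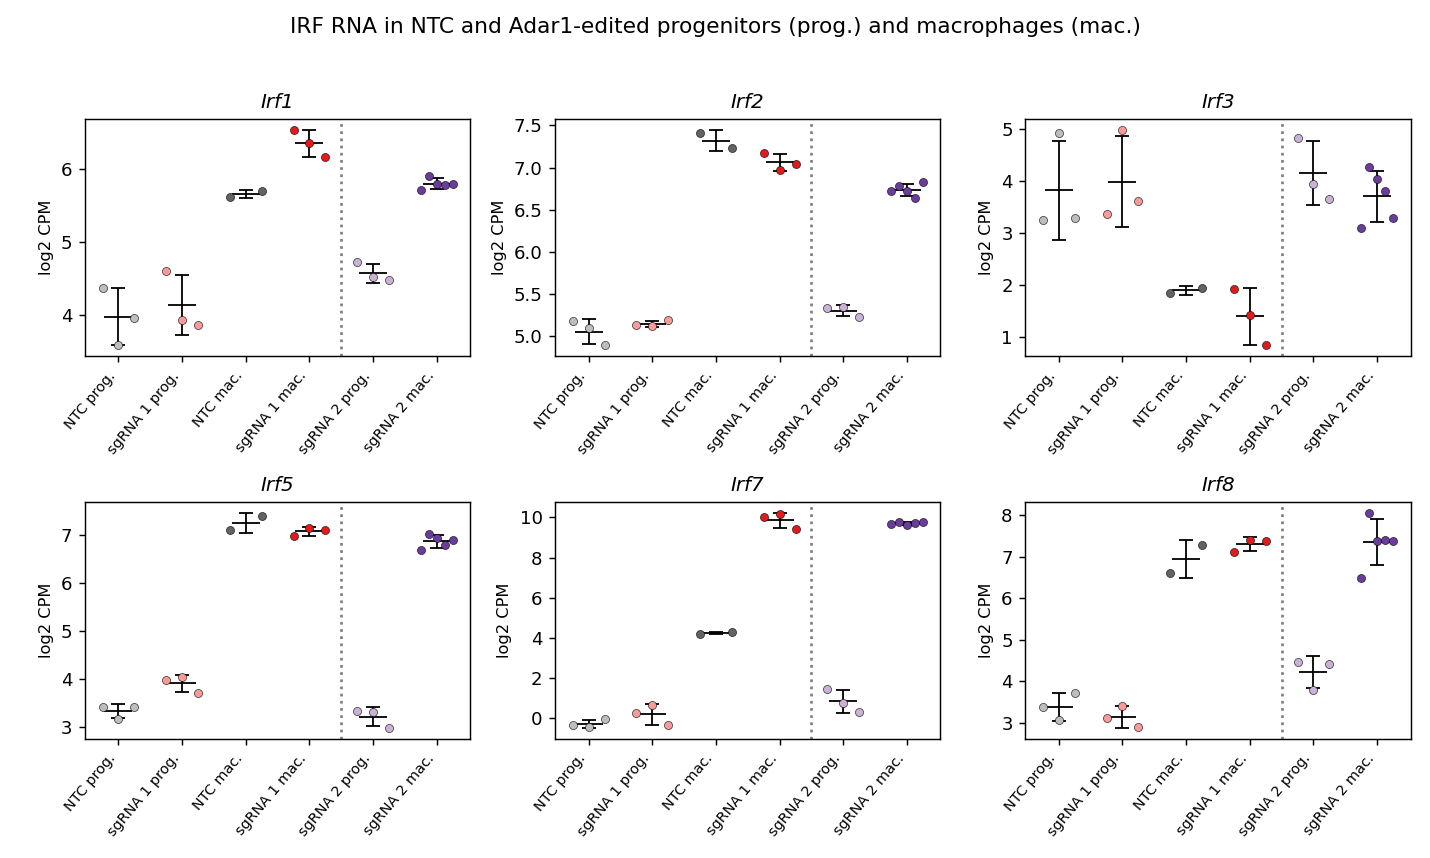
Level in log2 CPM (y axis) of the 6 tested IRFs in NTC, guide 1 and guide 2 cells (x axis), with 1 point per library, a bar for mean and SD and a dotted line between the sets that are not compared. Irf7 lies at 9.44 to 10.15 in guide 1 macrophages against 4.22 and 4.28 in NTC macrophages, and at -0.45 to 0.68 in guide 1 and NTC progenitors.

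Targets of the IRFs rose in the same macrophages. Of 6 tested targets of IRF3 and IRF7, 6 rose in guide 1 against NTC macrophages, with a median of 5.78 beside 0.05 for all genes, of which 21.8% were called, from Ifit3 at 6.22 (adjusted p 1.5e-06) to Cxcl10 at 3.47 (adjusted p 6.49e-05). In progenitors 0 of 6 passed with limma, 2 at unadjusted p under 0.05, with a median of -0.25 beside -0.01 for all genes. Of 4 tested targets of IRF1, 4 rose in macrophages (median 2.04), led by Gbp2, 5.18 (adjusted p 2.19e-05). Of 11 kinases and adaptors, Myd88 rose by 0.38 (adjusted p 0.0181) and Mavs changed by -0.50 (adjusted p 0.0192), with a median of 0.04. Among 11 tested partners 4 rose, Stat2 with 2.51 (adjusted p 0.0026) among them, and 1 fell, Spi1 with -0.63 (adjusted p 0.0157). Irf9 rose by 1.43 (adjusted p 0.000629). From NTC progenitors to NTC macrophages, 6 of 6 tested genes that depend on IRF8 rose (median 5.04 beside -0.08, with 71.8% of all genes called), led by Cx3cr1, 8.11 (adjusted p 5.48e-09).

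In macrophages grown with baricitinib, the change of Irf7 at the highest dose differed between NTC and Adar1 KO cells. Without drug Irf7 stood at 3.86, 3.07 and 3.15 in NTC and 9.31, 8.87 and 8.69 in Adar1 KO. At 0.0006 uM it was 2.86, 4.11 and 3.70 in NTC and 8.49, 9.16 and 8.91 in Adar1 KO, and at 0.016 uM 2.63, 1.99, 2.50 and 2.17 in NTC and 9.18, 9.11 and 8.77 in Adar1 KO. Up to this dose every Adar1 KO library was above every NTC library. At 0.4 uM it was 1.38, 0.60, 0.37 and 0.51 in NTC and 0.70, 10.52 and 3.31 in Adar1 KO, where the groups overlap. At 10 uM it was 0.19, 0.47 and 0.47 in NTC and -0.57, -0.64, -0.25 and -0.59 in Adar1 KO, with all Adar1 KO libraries now below all NTC libraries.

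Adar1 KO exceeded NTC in Irf7 by 5.60 (95% interval 3.22 to 7.98, adjusted p 0.000677) without drug. The excess was 5.30 (95% interval 2.92 to 7.68, adjusted p 0.00092) at 0.0006 uM and 6.70 (95% interval 4.47 to 8.92, adjusted p 2.37e-05) at 0.016 uM. At 0.4 uM it was 4.13 (95% interval 1.90 to 6.35, adjusted p 0.012), and 1.29 (adjusted p 0.0675) without Adar1 KO replicate 2 at that dose or 6.20 (adjusted p 3.28e-05) without replicate 1. At 10 uM the difference was -0.89 (adjusted p 0.534), not called with all libraries and called at an adjusted p of 0.0498 without that replicate.

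At 10 uM against no drug, Irf7 in Adar1 KO cells changed by -9.47 (95% interval -11.70 to -7.25, adjusted p 1.69e-08). In NTC cells the difference was -2.98 (95% interval -5.36 to -0.60, adjusted p 0.0854), not called with all libraries, and called with an adjusted p of 0.0197 without Adar1 KO replicate 1 at 0.4 uM and 6.8e-06 without replicate 2. Those libraries enter the NTC comparison only through the shared estimate of the spread. The interaction, the change of the Adar1 KO excess from 0 to 10 uM, was -6.49 (95% interval -9.75 to -3.23, adjusted p 0.00202). At 0.4 uM Irf7 in NTC differed from no drug by -2.64 (adjusted p 0.853), with all 4 libraries below all without drug, and had an adjusted p of 9.67e-05 without Adar1 KO replicate 2 at 0.4 uM.

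In Adar1 KO cells at 0.4 uM Irf7 rested on single libraries. Against no drug it changed by -4.11 (95% interval -6.49 to -1.73, adjusted p 0.00954), by -6.95 (adjusted p 2.68e-12) without replicate 2, by -2.04 (adjusted p 0.131) without replicate 1 and by -3.35 (adjusted p 0.0636) without replicate 3. The interaction at 0.4 uM was -1.47 (adjusted p 0.669), and -4.31 (adjusted p 6.16e-06) without replicate 2. Proliferation genes in these libraries summed to 630, 115 and 558 CPM, against 88.0 to 123 CPM in Adar1 KO cells without drug, so replicate 2 lay in the range without drug for these genes. What sets that library apart was not tested.

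Irf1 in Adar1 KO cells stood above NTC without drug and below it at 10 uM. Without drug it stood at 4.88, 4.55 and 4.52 in NTC and 5.81, 5.64 and 5.66 in Adar1 KO. At 10 uM it stood at 4.09, 4.15 and 3.84 in NTC and 3.37, 3.26, 3.52 and 3.56 in Adar1 KO, and at 0.4 uM at 4.42, 4.55, 4.54 and 4.17 in NTC and 4.22, 7.69 and 4.43 in Adar1 KO. The 3 Adar1 KO libraries without drug were above all NTC libraries, and the 4 at 10 uM were below all NTC libraries. The excess was 1.05 (adjusted p 0.0866) without drug, between 0.21 and 2.06 (95% interval, adjusted p 0.0582) at 0.0006 uM and 1.17 (adjusted p 0.0335) at 0.016 uM. The first passed without Adar1 KO replicate 1 or 2 at 0.4 uM (adjusted p 0.0467 and 2.85e-07), and the second without replicate 1, 2 or 3 there (adjusted p 0.0283, 6.24e-08 and 0.0382). The call at 0.016 uM ended without any of the 3 Adar1 KO libraries or NTC replicates 2, 3 or 4 at that dose (adjusted p 0.0536 to 0.0865).

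At 0.4 uM Irf1 in Adar1 KO differed from NTC by 1.03 (adjusted p 0.102), and passed without replicate 1 (1.64, adjusted p 0.00618) or replicate 3 (1.54, adjusted p 0.0158) of the Adar1 KO group. Adar1 KO replicates 1 and 3, at 4.22 and 4.43, lay within the NTC range of 4.17 to 4.55. The excess over NTC thus rested on replicate 2, at 7.69. Against no drug Irf1 in Adar1 KO differed by -0.26 (adjusted p 0.723), and by -1.38 (adjusted p 2.07e-08) without replicate 2. The interaction at that dose was -0.02 (adjusted p 0.991), and -1.15 (adjusted p 8.82e-05) without replicate 2. Irf2 at 0.4 uM stood at 6.42, 7.58 and 6.61 in Adar1 KO, again with replicate 2 highest, and its difference from NTC of 0.40 (adjusted p 0.0975) passed without replicate 1 (0.63, adjusted p 0.00662) or replicate 3 (0.53, adjusted p 0.0405). In NTC at that dose Irf2 stood at 6.54, 6.34, 6.47 and 6.54. Adar1 KO replicates 1 and 3 lay within or close to that range, so the difference rested mainly on replicate 2.

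At 10 uM Irf1 in Adar1 KO differed from NTC by -0.60 (adjusted p 0.26), and passed without Adar1 KO replicate 2 at 0.4 uM (adjusted p 0.000194). Against no drug it changed by -2.28 (95% interval -3.14 to -1.41, adjusted p 3.08e-05) in Adar1 KO, and in NTC it differed by -0.63 (adjusted p 0.383), called (adjusted p 0.00102) without Adar1 KO replicate 2 at 0.4 uM. The interaction was -1.65 (95% interval -2.91 to -0.39, adjusted p 0.0346). That call ended when any 1 of NTC replicates 2 or 3 without drug, NTC replicates 1 or 2 at 10 uM, Adar1 KO replicates 1 or 2 without drug or Adar1 KO replicate 2 at 10 uM was left out (adjusted p 0.0506 to 0.0669), and without a filter on low values (-1.65, adjusted p 0.0661).

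Irf5 in Adar1 KO cells was low at 10 uM. It stood at 7.71, 7.57 and 7.39 in NTC and 7.08, 7.19 and 7.11 in Adar1 KO without drug. At 10 uM it stood at 7.20, 7.39 and 7.11 in NTC and 4.56, 5.06, 5.77 and 5.21 in Adar1 KO. Adar1 KO libraries were below all NTC libraries at both doses. At 10 uM the difference from NTC was -2.08 (95% interval -2.48 to -1.69, adjusted p 1.71e-09), and without drug -0.43 (adjusted p 0.133). The difference between 10 and 0 uM was -1.98 (95% interval -2.37 to -1.58, adjusted p 9.34e-10) in Adar1 KO and -0.32 (adjusted p 0.324) in NTC, with an interaction of -1.66 (95% interval -2.23 to -1.08, adjusted p 4.85e-05). Irf5 was also called lower in Adar1 KO at 0.0006 uM, by -0.71 (adjusted p 0.0106), and the difference was -0.57 (adjusted p 0.0686) without Adar1 KO replicate 1 at that dose. At 0.016 uM it differed by -0.55 (adjusted p 0.0298), a call that ended without NTC replicate 3 or any 1 Adar1 KO library at that dose (adjusted p 0.0547 to 0.0854).

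Irf3 was low in Adar1 KO cells at 10 uM as well. It stood at 4.21, 4.56 and 3.70 in NTC and 3.06, 2.28, 2.87 and 2.61 in Adar1 KO, against 4.65, 4.44 and 4.07 and 4.10, 3.31 and 4.05 without drug. The groups were apart at 10 uM and overlapped without drug. The difference at 10 uM was -1.45 (95% interval -2.04 to -0.87, adjusted p 0.000145), the change from no drug in Adar1 KO -1.11 (adjusted p 0.00119), and the interaction -0.89 (adjusted p 0.0927). The interaction passed without NTC replicate 3 at 10 uM (adjusted p 0.0465) or Adar1 KO replicate 2 without drug (adjusted p 0.0393). At 0.016 uM Irf3 in Adar1 KO differed from NTC by 0.59 (adjusted p 0.117), and by 0.81 (adjusted p 0.0311) without NTC replicate 4 at that dose.

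Irf8 and Irf2 were lower in Adar1 KO cells at 10 uM than in Adar1 KO cells without drug. Against NTC at 10 uM neither was called with all libraries. There NTC stood at 7.28, 7.30 and 7.16 for Irf8 and 6.00, 5.92 and 6.25 for Irf2. Without drug Irf8 in NTC stood at 8.46, 6.83 and 7.36. Irf8 stood at 7.17, 8.27 and 8.23 in Adar1 KO without drug and 6.38, 6.65, 7.15 and 6.95 at 10 uM, so that every library at 10 uM was below every library without drug. The change was -1.10 (95% interval -1.88 to -0.32, adjusted p 0.0128), and it did not pass without replicate 2 or 3 of the libraries without drug (-0.91 and -0.93, adjusted p 0.0698 and 0.0632). Irf2 stood at 6.64, 6.64 and 6.66 without drug and 6.12, 5.78, 5.80 and 6.02 at 10 uM in Adar1 KO, a change of -0.71 (95% interval -1.04 to -0.39, adjusted p 0.000313). In NTC Irf2 changed by -0.53 (95% interval -0.89 to -0.18, adjusted p 0.0368), which did not pass without any 1 of the 3 NTC libraries without drug or NTC replicates 1 or 2 at 10 uM (adjusted p 0.0618 to 0.141). The interaction was -0.18 (adjusted p 0.576) for Irf2 and -0.80 (adjusted p 0.268) for Irf8.

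Counts of IRFs called are given per dose beside the share of all genes, and a difference in these counts between doses was not tested. Between Adar1 KO and NTC, 1 of 6 was called without drug, against 25.3% of all genes, 2 of 6 at 0.0006 uM, against 29%, and 3 of 6 at 0.016 uM, against 32.2%. At 0.4 uM it was 1 of 6, against 13.5% of all genes, and at 10 uM 2 of 6, against 45.3%. The Adar1 KO group without drug serves all the dose comparisons of Adar1 KO, as the NTC group does for NTC. In Adar1 KO against no drug, limma called 0 of 6 at 0.0006 uM, 0 at unadjusted p under 0.05, against 2.34% of all genes, and 0 of 6 at 0.016 uM, 0 at unadjusted p under 0.05, against 6.21%. It called 2 of 6 at 0.4 uM, against 26.6% of all genes, and 6 of 6 at 10 uM, all lower, against 65.8%. The second call at 0.4 uM was Irf5, 0.55 (adjusted p 0.0496), which did not pass without replicate 2 (0.25, adjusted p 0.353) or 1 (0.63, adjusted p 0.0506) of that group. That call also ended without any 1 of the NTC libraries, of the Adar1 KO libraries at 0 or 0.016 uM, of replicate 3 at 0.0006 uM or of replicates 2 or 4 at 10 uM (adjusted p 0.0523 to 0.131).

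In NTC against no drug limma called 0 of 6 at 0.0006 uM, 1 at unadjusted p under 0.05, against 0% of all genes. It called 0 of 6 at 0.016 uM, 1 at unadjusted p under 0.05, against 0% of all genes, and 0 of 6 at 0.4 uM, 1 at unadjusted p under 0.05, against 0.00897%. At 10 uM 1 of 6 was called, against 13.8% of all genes. For the change of the Adar1 KO excess from no drug, limma called 0 of 6 at 0.0006 uM, 0 at unadjusted p under 0.05, against 0%. It called 0 of 6 at 0.016 uM, 1 at unadjusted p under 0.05, against 0.00897% of all genes, and 0 of 6 at 0.4 uM, 0 at unadjusted p under 0.05, against 4.76%. At 10 uM 3 of 6 were called, against 39.5% of all genes.

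**Figure D4:**
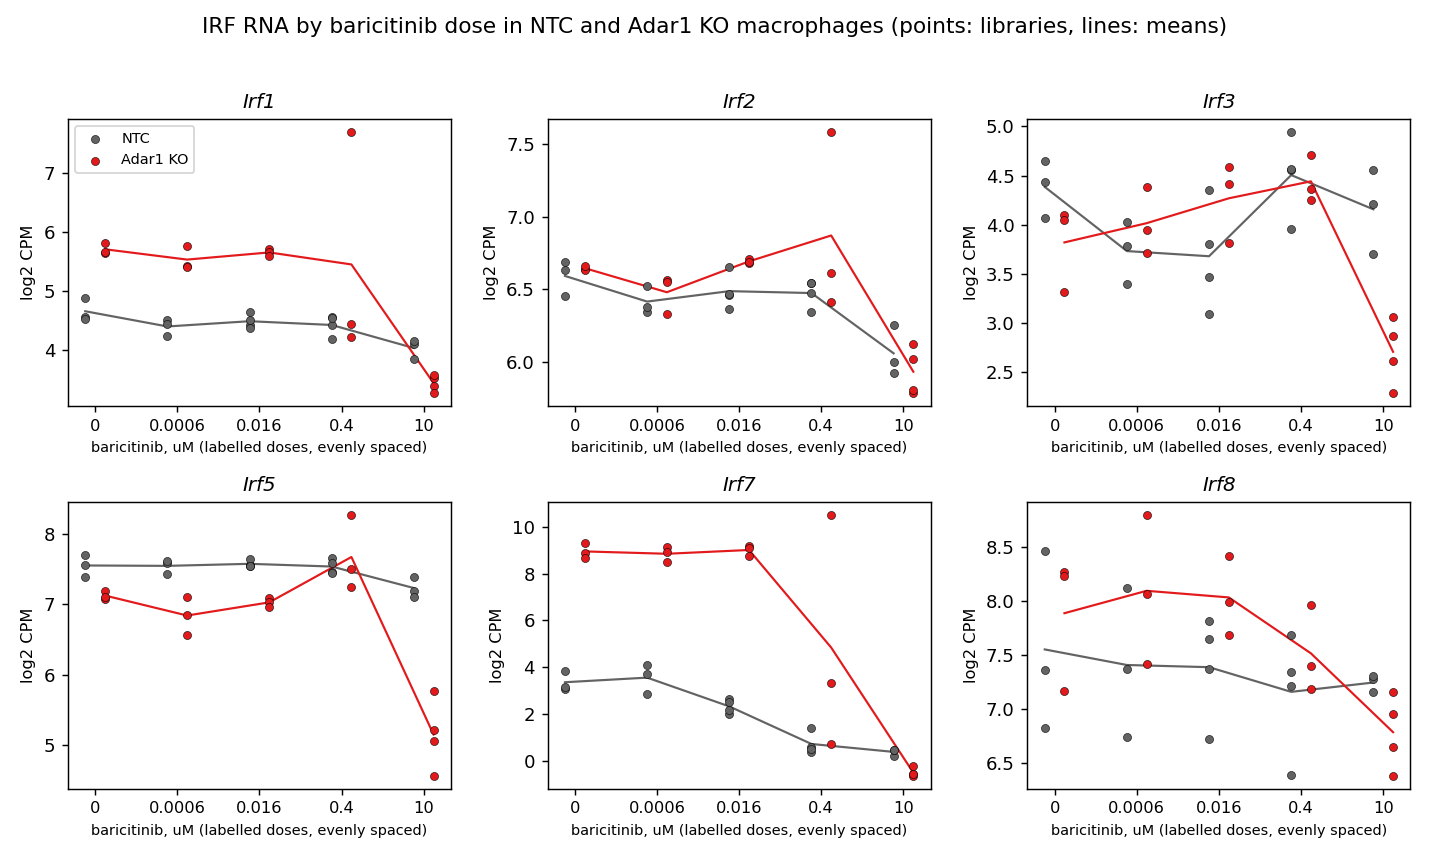
Level in log2 CPM (y axis) of the 6 tested IRFs in NTC (grey) and Adar1 KO (red) macrophages at the labelled baricitinib doses in uM, drawn evenly spaced (x axis), with 1 point per library and lines through group means. Irf7 in Adar1 KO lies at 8.49 to 9.31 up to 0.016 uM, at 0.70, 10.52 and 3.31 at 0.4 uM and at -0.64 to -0.25 at 10 uM.

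Ranked by mean over the 10 groups, Irf7 ran from Adar1 KO at 0.016, 0 and 0.0006 uM (9.02, SD 0.22, 8.96, SD 0.32 and 8.86, SD 0.34) through Adar1 KO at 0.4 uM (4.84, SD 5.09) and NTC at 0.0006 and 0 uM (3.55, SD 0.64 and 3.36, SD 0.43). It went on to NTC at 0.016 uM (2.32, SD 0.30), 0.4 uM (0.71, SD 0.45) and 10 uM (0.38, SD 0.16) and ended at Adar1 KO at 10 uM (-0.51, SD 0.18). Neighbours were apart beyond the spread only from NTC at 0 to 0.016 uM, from 0.016 to 0.4 uM and from NTC to Adar1 KO at 10 uM. Irf1 ran from Adar1 KO without drug (5.70, SD 0.09) to Adar1 KO at 10 uM (3.43, SD 0.14). The last 2 steps, into NTC at 10 uM and from there to Adar1 KO at 10 uM, were beyond the spread. Irf5 ran from Adar1 KO at 0.4 uM (7.67, SD 0.53) to Adar1 KO at 10 uM (5.15, SD 0.50). Steps beyond the spread led into NTC at 10 uM and into Adar1 KO at 10 uM. Irf3 ran from NTC at 0.4 uM (4.50, SD 0.41) to Adar1 KO at 10 uM (2.71, SD 0.33). Only the step into Adar1 KO at 10 uM was beyond the spread. Irf2 ran from Adar1 KO at 0.4 uM (6.87, SD 0.62) to Adar1 KO at 10 uM (5.93, SD 0.17). Steps beyond the spread led from Adar1 KO at 0.016 uM to Adar1 KO without drug and into NTC at 10 uM. The first was small, from libraries at 6.68, 6.71 and 6.69 to libraries at 6.64, 6.64 and 6.66, and limma did not call it. Irf8 ran from Adar1 KO at 0.0006 uM (8.09, SD 0.69) to Adar1 KO at 10 uM (6.78, SD 0.34). No step of Irf8 was beyond the spread.

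Most tested targets of the IRFs were called higher in Adar1 KO than in NTC without drug, and most fell from 0 to 10 uM in Adar1 KO. Without drug 6 of 7 tested targets of IRF3 and IRF7 were higher than in NTC, with a median of 5.84 beside -0.02 for all genes, of which 25.3% were called, led by Ifit3, 7.53 (adjusted p 0.00032). The interferon gene Ifnb1 was the one that did not pass, 2.75 (adjusted p 0.0897). From 0 to 10 uM in Adar1 KO 6 of 7 fell, with a median of -6.24 beside 0.05 for all genes, of which 65.8% were called, led by Ifit3, -9.71 (adjusted p 5.25e-07), while Cxcl10 did not pass, -2.18 (adjusted p 0.104). At 10 uM 0 of 7 differed from NTC by limma's adjusted p, 0 at unadjusted p under 0.05 (median 0.14), with 45.3% of all genes called. Targets of IRF1 were higher in 3 of 4 without drug (median 2.47), led by Gbp2 with 5.33 (adjusted p 0.00155). All 4 fell from 0 to 10 uM in Adar1 KO (median -4.71). In NTC from 0 to 10 uM, 0 of 7 targets of IRF3 and IRF7 and 0 of 4 targets of IRF1 passed with limma, and 1 of each list had an unadjusted p under 0.05, with 13.8% of all genes called.

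Upstream and partner genes in Adar1 KO cells were compared between 0 and 10 uM, where 65.8% of all genes were called. Of 11 kinases and adaptors 3 rose and 4 fell (median -0.42), from Irak4 with 1.61 (adjusted p 2.9e-10) to Ikbke with -3.49 (adjusted p 1.3e-10). Of 11 tested partners 3 rose and 5 fell (median -0.37), with the lowest value for Stat2, -5.26 (adjusted p 6.21e-08). Irf9 changed by -3.17 (adjusted p 5.18e-08) in Adar1 KO and by -2.10 (adjusted p 0.00127) in NTC. Proliferation genes, summed, moved with dose: 88 to 123 CPM without drug and 1576 to 2334 CPM at 10 uM in Adar1 KO, 329 to 488 CPM and 793 to 1269 CPM in NTC. Macrophage markers summed to 2543 to 3103 CPM in Adar1 KO at 10 uM and 4783 to 5081 CPM without drug. Their part in the IRF results was not tested.

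**Figure D5:**
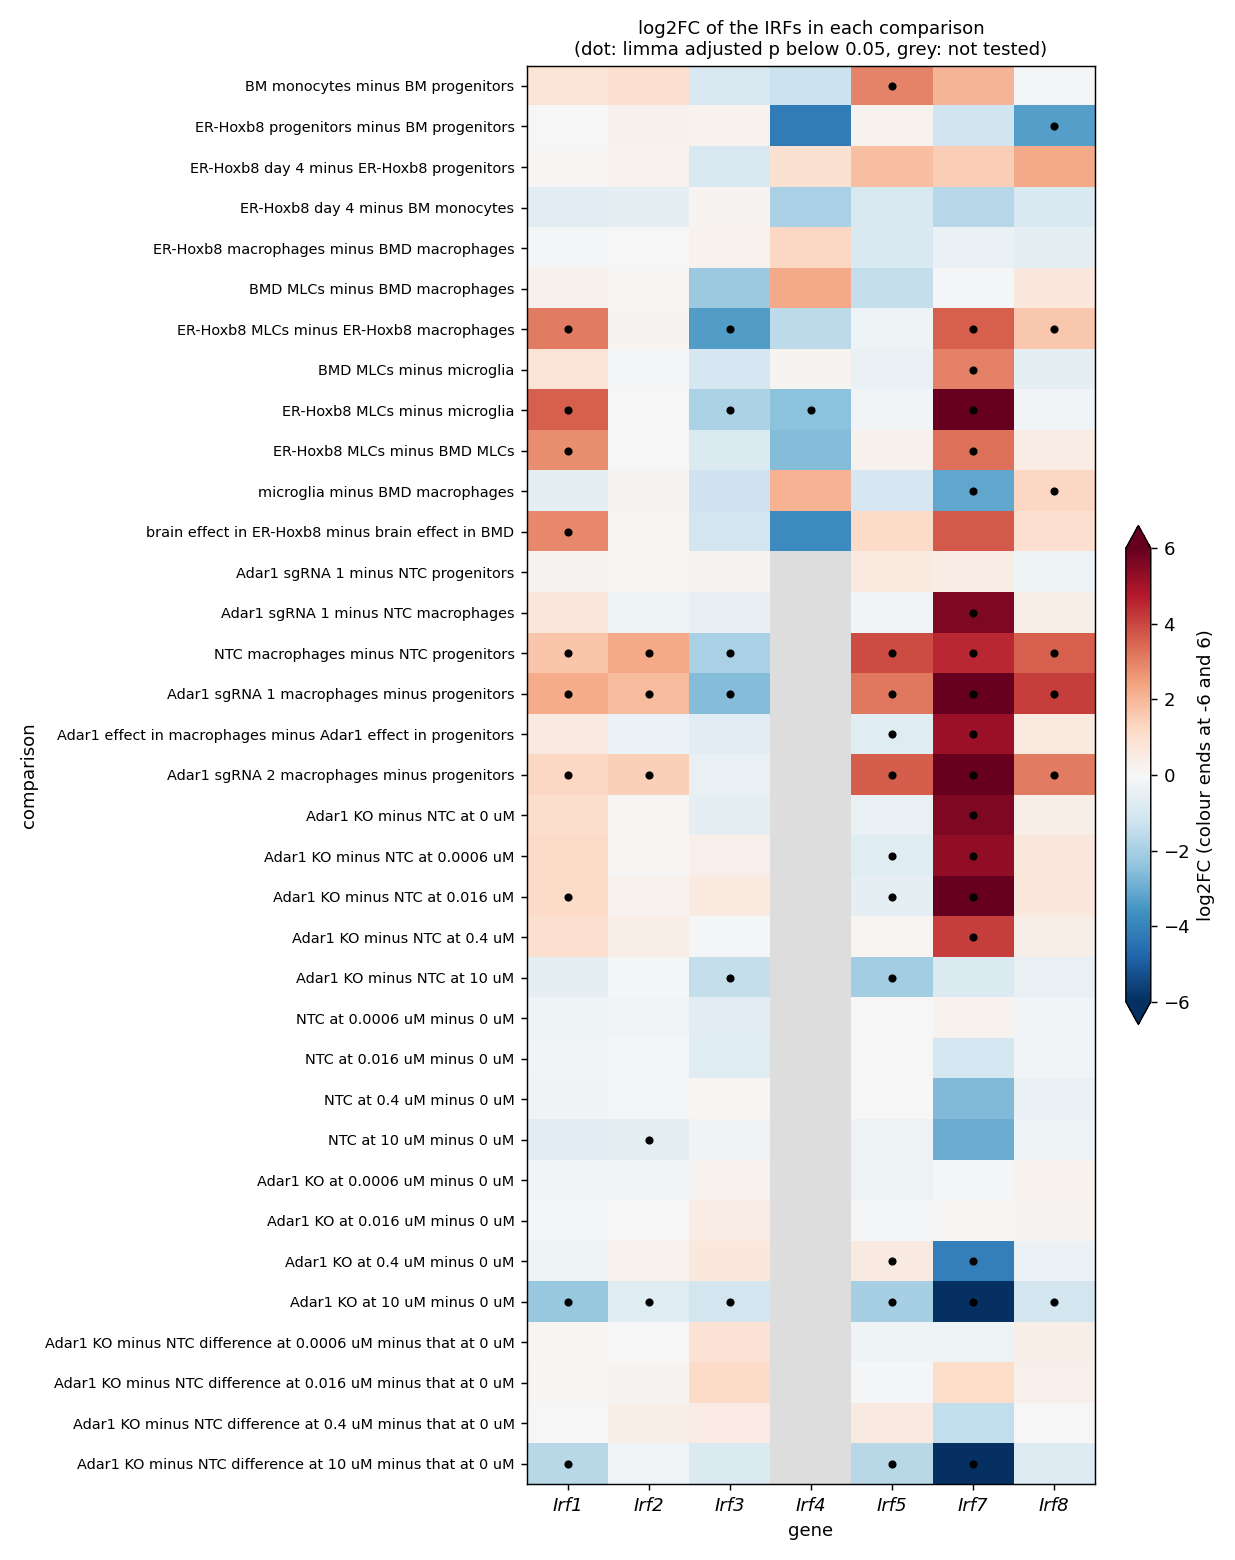
Log2 difference (colour) of each IRF (x axis) in each of the 35 comparisons (y axis), with a dot where limma's adjusted p was below 0.05 and grey where Irf4 was not tested. Irf7 has the largest values, 9.67 from guide 1 progenitors to macrophages and -9.47 from 0 to 10 uM baricitinib in Adar1 KO.

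The genes most like each IRF across libraries are given as a description, by Pearson's r of log2 CPM. Over the 33 baricitinib libraries, Irf7 was most like Xaf1 (0.991), Lgals3bp (0.990) and Usp18 (0.990), Irf1 was most like Tor3a (0.981), Trafd1 (0.979) and Rnf114 (0.976), and Irf5 was most like Hk3 (0.977) and Arhgap22 (0.970). Lower values held for Irf2 with AB124611 (0.919), Sertad3 (0.911) and Gm8995 (0.898), for Irf8 with Hpcal1 (0.902), Rbm42 (0.865) and Rhbdd2 (0.863), and for Irf3 with Ralb (0.772), Slc2a1 (0.765) and Dram1 (0.764). These libraries fall into dose and guide groups, which all genes share.

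Over the 27 macrophage and brain libraries, Irf1 was most like C920025E04Rik (0.954), Zbp1 (0.952) and Psmb9 (0.940), Irf7 most like H2-K1 (0.946), Mnda (0.933) and H2-Q1 (0.928), and Irf3 most like Zcchc8 (0.893), Thoc5 (0.888) and Slc39a9 (0.882). Irf5 was most like Csk (0.888), Lipe (0.880) and Prkcsh (0.878), and Irf8 most like Il10ra (0.887), Nccrp1 (0.856) and Vhl (0.856). Irf4 was most like Irf2bp1 (0.783), Rgs19 (0.751) and Zfp442 (0.737), and Irf2 most like Abcb9 (0.751), Cdc40 (0.744) and Hus1 (0.732). No gene named here for a member was the same in both sets.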

How the data were processed

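Gene expression was measured by bulk RNA sequencing in 92 libraries of 25 groups. Per the labels, the authors checked reads with FastQC and MultiQC, quantified them with kallisto 0.46.0 and normalised with edgeR and limma on build GRCm39. The deposited table of 29957 features holds log2 values of TMM-normalised CPM (counts scaled to a common library total) with a prior count. It gives no counts, so the depth of each library is unknown. Libraries sharing a lowest value form 1 of 6 sets, and only these were compared.

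Each of 5 sets was fitted in limma 3.58.1 (R 4.3.3) with all its groups and an intensity trend, on genes above 1 CPM in at least 3 libraries (6 in the macrophage and brain set), and p was adjusted by Benjamini-Hochberg over all genes tested. Figures and markers used Python 3.11.15, numpy 2.4.6 and pandas 2.3.3. The fit was tested on simulated data.

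Deviations of same-numbered libraries from their group means were correlated, and all were above 0.1 over 3 pairs only between day 4 and ER-Hoxb8 progenitors (0.226 to 0.427) and between guide 1 and NTC progenitors (0.158 to 0.349). A replicate block in those groups was tried. The text names all 7 IRFs, examples from each gene list, mostly those with the largest positive or negative difference, and genes among the 3 most correlated with each IRF. Members and lists were chosen with earlier results of these data known. A few further genes and the libraries that stand apart were chosen after their values were seen. Alternatives tried were no filter, a pseudocount, quantile normalization, a replicate block, fits of only the groups compared, a fold limit, library series and leaving out each library.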

Additional observations from a re-analysis of the deposited data

Results flagged for a closer look

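In groups of 4 to 10 libraries, 48 pairs of an IRF and a group were checked for a library far from the others, and 4 were found. Chance gives such a library in about 1 in 20 groups. Irf2 in microglia replicate 8 was 5.83 log2 CPM, the lowest of 9, and the next was 6.78. Irf3 in ER-Hoxb8 MLCs replicate 5 was -3.62, the lowest of 6 and the lowest value of its set, and the next was -0.31. Irf4 in Adar1 KO at 10 uM replicate 4 was -1.76, while the other 3 libraries were at -2.78, the lowest value of their set. Irf5 in NTC at 0.016 uM replicate 3 was 7.65, the highest of 4, and the next was 7.56.

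Of 37 tests of a difference between effects in a pair of groups, 6 passed with limma. Of all genes, 3.28% were called for the brain effects, 13.6% for the guide effects and 39.5% for the Adar1 KO excess at 10 uM. For that excess at 0.0006, 0.016 and 0.4 uM the shares were 0%, 0.00897% and 4.76%. The brain effect on Irf1 in ER-Hoxb8 cells exceeded that in marrow cells by 2.86 (adjusted p 0.0116). The effect of guide 1 in macrophages minus that in progenitors was 5.15 for Irf7 (adjusted p 1.17e-05) and -0.75 for Irf5 (adjusted p 0.0297). The Adar1 KO excess at 10 uM minus that without drug was -6.49 for Irf7 (adjusted p 0.00202), -1.66 for Irf5 (adjusted p 4.85e-05) and -1.65 for Irf1 (adjusted p 0.0346). What lies behind these differences was not tested.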

How the results depend on the processing

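Counts of IRFs called are given per alternative, with the count of the report in brackets. Where they differ, the cause was not tested. No called difference of an IRF changed sign under any alternative tried.

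Without a filter on low values, monocytes against marrow progenitors gave 0 (1), ER-Hoxb8 against marrow progenitors 0 (1), microglia against BMD macrophages 1 (2), the guide interaction 1 (2), Adar1 KO against NTC at 0.016 uM 1 (3), NTC at 10 uM against no drug 0 (1), Adar1 KO at 0.4 uM against no drug 1 (2) and the interaction at 10 uM 2 (3). With a pseudocount of 1, monocytes against marrow progenitors gave 2 (1), ER-Hoxb8 against marrow progenitors 2 (1), BMD MLCs against BMD macrophages 2 (0), ER-Hoxb8 MLCs against microglia 3 (4) and the difference of brain effects 2 (1). Irf4 in ER-Hoxb8 MLCs against microglia was -0.90 (adjusted p 0.153) there.

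After quantile normalization, monocytes against marrow progenitors gave 2 (1), BMD MLCs against BMD macrophages 1 (0), guide 1 against NTC macrophages 2 (1), Adar1 KO against NTC 2 (1) without drug and 3 (2) at 0.0006 uM, and Adar1 KO at 0.4 uM against no drug 1 (2). With a replicate block, monocytes against marrow progenitors gave 2 (1), BMD MLCs against microglia 2 (1), ER-Hoxb8 MLCs against microglia 3 (4), the difference of brain effects 2 (1), guide 1 against NTC macrophages 2 (1) and Adar1 KO at 0.4 uM against no drug 1 (2).

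With only the compared groups in the fit, monocytes against marrow progenitors gave 3 (1), ER-Hoxb8 against marrow progenitors 0 (1), day 4 cells against monocytes 1 (0), BMD MLCs against BMD macrophages 3 (0), ER-Hoxb8 MLCs against microglia 2 (4) and guide 1 against NTC macrophages 2 (1). NTC macrophages against progenitors gave 5 (6), where Irf7 fell below the filter and was not tested, and no other IRF changed its call. Microglia against BMD macrophages kept 2 (2), with Irf4 (2.08, adjusted p 0.013) in place of Irf8 (1.22, adjusted p 0.059). In the same fits, Adar1 KO against NTC gave 3 (1) without drug, 3 (2) at 0.0006 uM, 0 (1) at 0.4 uM and 4 (2) at 10 uM. NTC gave 1 (0) at 0.4 uM and 3 (1) at 10 uM against no drug, and Adar1 KO 0 (2) at 0.4 uM against no drug.

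With a log2 difference of at least 2 required, ER-Hoxb8 MLCs gave 3 (4) against ER-Hoxb8 macrophages and 3 (4) against microglia, and microglia against BMD macrophages 1 (2). Macrophages against progenitors gave 4 (6) for NTC, 5 (6) for guide 1 and 3 (5) for guide 2, and the guide interaction 1 (2). In the drug experiment this gave, for Adar1 KO against NTC, 1 (2) at 0.0006 uM, 1 (3) at 0.016 uM and 1 (2) at 10 uM, NTC at 10 uM against no drug 0 (1), Adar1 KO against no drug 1 (2) at 0.4 uM and 2 (6) at 10 uM, and the interaction at 10 uM 1 (3). With GFPHox libraries only, ER-Hoxb8 MLCs against microglia gave 2 (4). With WTHox libraries only, ER-Hoxb8 MLCs against BMD MLCs gave 3 (2). Without the YSWT libraries, ER-Hoxb8 MLCs against microglia gave 3 (4). With NTC macrophages replicate 2 included, guide 1 against NTC macrophages gave 2 (1).

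A pair of alternatives was added after the data were seen. Without the Adar1 KO libraries at 0.4 uM, Adar1 KO against NTC gave 2 (1) without drug, 3 (2) at 0.0006 uM and 4 (2) at 10 uM, and NTC against no drug 1 (0) at 0.4 uM and 3 (1) at 10 uM. A replicate block in fits of only the day 4 cells and ER-Hoxb8 progenitors, or only the guide 1 and NTC progenitors, changed no call of an IRF.

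Leaving out 1 library at a time gave these ranges. Monocytes against marrow progenitors ran from 0 to 3 (1), ER-Hoxb8 against marrow progenitors from 0 to 3 (1), day 4 cells against ER-Hoxb8 progenitors from 0 to 3 (0) and against monocytes from 0 to 1 (0). BMD MLCs ran from 0 to 2 (0) against BMD macrophages and from 1 to 2 (1) against microglia. ER-Hoxb8 MLCs ran from 3 to 5 (4) against ER-Hoxb8 macrophages, from 2 to 4 (4) against microglia and from 2 to 3 (2) against BMD MLCs. Microglia against BMD macrophages and the guide interaction ran from 1 to 2 (2), and the difference of brain effects and guide 1 against NTC macrophages from 1 to 2 (1). Adar1 KO against NTC ran from 1 to 2 (1) without drug, 1 to 3 (2) at 0.0006 uM, 1 to 3 (3) at 0.016 uM, 0 to 3 (1) at 0.4 uM and 2 to 4 (2) at 10 uM. Against no drug NTC ran from 0 to 1 (0) at 0.4 uM and 0 to 3 (1) at 10 uM, Adar1 KO from 0 to 2 (2) at 0.4 uM and 5 to 6 (6) at 10 uM, and the interaction from 0 to 2 (0) at 0.4 uM and 2 to 4 (3) at 10 uM.

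Of single IRF differences, 213 kept direction and side of the threshold without a filter, 9 no longer passed and none newly passed. With the pseudocount 216 were kept, 1 no longer passed and 5 newly passed. After quantile normalization 206 were kept, 1 no longer passed, 5 newly passed and the other 10 changed direction. With a replicate block 211 were kept, 2 no longer passed, 4 newly passed and the other 5 changed direction. With only the compared groups in the fit 194 were kept, 7 no longer passed and 16 newly passed. The deposited table gives no counts, so what depth limits cannot be stated, and IRF differences near the lowest value of a set, those of Irf4 above all, rest on the prior count. RNA levels carry no measure of phosphorylation or nuclear entry of the IRF proteins, which were not analysed here. Groups of 2 or 3 libraries limit the precision of each difference, and spread between lines edited with the same guide was not tested.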
